A study of Mus musculus with 12 samples.

Results

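The 10 genes described here mark macrophages and were followed in whole mouse ovaries: the 10 rows of the deposited expression table whose symbols are Cd68, Adgre1, Csf1r, Itgam, Cd14, Lyz2, Mrc1, Cd163, Lyve1 and Msr1, of 24255 genes in all. The first 6 are used as general macrophage and myeloid genes, and the last 4 encode endocytic and scavenger receptors that are often used for macrophages resident in tissues. The mutant ovaries (CKO, n = 5 libraries) came from C57BL/6 mice whose Mtor gene, which encodes a growth-controlling kinase, was deleted in oocytes with Cre driven by Gdf9. The other ovaries (WT, n = 7 libraries) came from C57BL/6 mice labelled wild type, whose Mtor alleles and Cre status are not described further in the labels. All mice, aged 6 months, were given eCG (also labelled PMSG), a gonadotropin that drives follicle growth, at 5 IU per mouse, and ovaries were taken 46 h afterwards. Gdf9-Cre is known to act in oocytes, and Mtor in macrophages was not measured on its own.

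Macrophages are the most abundant leukocytes of the ovary. They depend on signals through the receptor CSF1R, engulf dying follicle cells and the remains of corpora lutea, and sit around vessels and in the stroma. Part of the pool is seeded before birth and part is renewed from blood monocytes. No gene of the set is unique to macrophages: Lyz2, Itgam and Cd14 are also made by neutrophils and monocytes, and Lyve1 and Mrc1 are also made by lymphatic endothelium.

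Polyadenylated RNA was sequenced, and levels are given as the authors' FPKM, a unit scaled to transcript length and library size, which allows levels of different genes to be set side by side. Total counts were not used here. From the steps between low values, 1 fragment on a transcript of 1 kb was worth 0.302 to 0.659 FPKM, a 2.18-fold range of depth over the 12 libraries. Mtor itself was at 5.02 ± 0.499 FPKM in CKO (SD, n = 5) and 4.70 ± 0.702 FPKM in WT (SD, n = 7), with a log2 fold change of 0.08 (adjusted p = 0.709, limma), a reading over all ovarian cells that says little about the oocytes in which the gene was deleted. The tissue label was checked with Foxl2, a granulosa factor picked with its values known, which was at 173 ± 24.7 FPKM in CKO (SD, n = 5) and 247 ± 55.8 FPKM in WT (SD, n = 7). CKO replicates 1 and 5 and WT replicate 1 stood apart by a summed level of 7 red blood cell genes of 279.5, 315.7 and 248.5 FPKM, against 13 to 74.9 FPKM in the other 9 libraries. A WT column whose name fits 2 WT samples is called the unnumbered WT library.

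The upstream sequences shown are those of the 3 members whose windows held the motif searched. These 3 had higher means in CKO, as did all 10 members, although Itgam did not pass the test. PU.1, encoded by Spi1, is the master transcription factor of macrophages and is known to act through a purine-rich element, the PU box. The motif searched was GAGGAA on both strands, so it reads TTCCTC where it lies on the other strand, and the window was the 250 bases before the annotated start. RefSeq windows on GRCm38.p6 were at hand for 5 of the 10 members, and 3 of these windows held the motif, as did 23.3% of all 32851 windows of that length. Lyz2 and Cd163 held no match in this window, which says nothing of the factor. Capitals mark the motif, and each window is written in the direction of its gene.
Cd68 (chr11:69666171-69666420, minus strand): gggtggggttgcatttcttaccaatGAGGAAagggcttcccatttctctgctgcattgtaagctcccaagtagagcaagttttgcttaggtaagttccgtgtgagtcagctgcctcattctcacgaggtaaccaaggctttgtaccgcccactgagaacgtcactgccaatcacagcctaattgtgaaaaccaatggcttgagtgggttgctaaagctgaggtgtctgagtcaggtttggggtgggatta
Itgam (chr7:128062390-128062639, plus strand): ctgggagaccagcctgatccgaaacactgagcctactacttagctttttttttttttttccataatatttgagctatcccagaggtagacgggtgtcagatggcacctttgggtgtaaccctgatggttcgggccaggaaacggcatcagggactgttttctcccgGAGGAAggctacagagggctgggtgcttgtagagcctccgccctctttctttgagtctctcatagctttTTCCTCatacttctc
Mrc1 (chr2:14229164-14229413, plus strand): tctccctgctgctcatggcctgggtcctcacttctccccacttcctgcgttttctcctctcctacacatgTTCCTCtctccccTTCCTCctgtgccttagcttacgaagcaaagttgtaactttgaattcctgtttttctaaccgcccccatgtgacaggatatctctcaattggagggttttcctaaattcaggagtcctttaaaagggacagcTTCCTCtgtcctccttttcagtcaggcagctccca
The Mrc1 window held 3 matches, which 0.429% of all windows reach. The Itgam window held 2 and the Cd68 window 1.

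Macrophage marker transcripts were higher in CKO ovaries for most of the set. Of the 10 members, all passed the filter on low values, 7 rose, 0 fell, and Adgre1, Itgam and Cd163 did not pass the test (limma on log2(FPKM + 1), Benjamini-Hochberg over 13168 genes, threshold 0.05). By the same test 8.7% of all genes tested rose and 7.59% fell. In 6 members every CKO library lay above every WT library, a pattern found in 4.09% of all genes tested. The mean was higher in CKO for all 10, and the median log2 fold change of the members was 0.99, against -0.01 for all genes tested. In bulk tissue, more cells of a type and more RNA per cell cannot be told apart, nor can a higher share of RNA from one cell type and a lower share from others. Granulosa transcripts moved the other way: all 8 genes of a granulosa list fell, and their summed level was 1760 to 2860 FPKM in CKO and 3910 to 6710 FPKM in WT. The part of that fall in the rise of the macrophage genes was not tested.

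**Figure D1:**
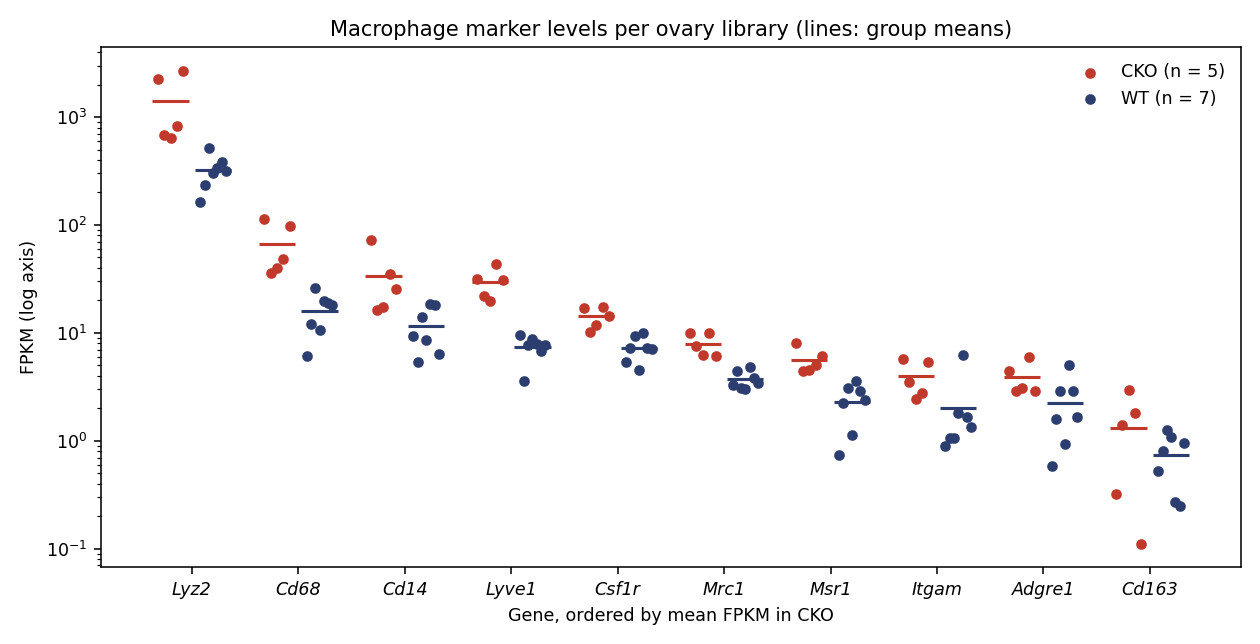
FPKM (log axis) of the 10 macrophage markers, ordered by mean level in CKO, with 1 point per library (red, CKO, n = 5; blue, WT, n = 7) and a line at each group mean. Lyz2, Cd68, Lyve1, Csf1r, Mrc1 and Msr1 show no overlap between the genotypes, while Cd14, Itgam, Adgre1 and Cd163 do.

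Csf1r (chromosome 18, 61100598 to 61132149, plus strand, mm10) encodes the receptor tyrosine kinase on which macrophage survival depends. It was at 17.2, 10.2, 11.8, 17.4 and 14.4 FPKM in CKO replicates 1 to 5, against 4.52 to 9.97 FPKM with a median of 7.19 FPKM in the 7 WT libraries. The lowest CKO library was thus just above the highest WT library. CKO exceeded WT by 0.89 on the log2 scale (SE 0.19; adjusted p = 0.0052, limma). Annotated exons of Hmgxb3 on the other strand share 15.1% of the exonic bases of Csf1r, and whether the counting used strand is not given in the sources used here. Hmgxb3 itself did not pass, with a log2 fold change of -0.16 (adjusted p = 0.389).

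The ligand Csf1 rose together with the receptor. Csf1 was at 16.4 ± 2.60 FPKM in CKO (SD, n = 5) and 8.20 ± 1.48 FPKM in WT (SD, n = 7), with a log2 fold change of 0.92 (adjusted p = 0.000678, limma). Il34, the second ligand of CSF1R, was at 5.67 ± 2.2 FPKM in CKO (SD, n = 5) and 5.62 ± 2.68 FPKM in WT (SD, n = 7) and did not pass (adjusted p = 0.93). Of 9 genes of myeloid growth factors and their receptors, 6 could be tested, of which Csf1 and Csf2rb rose and 0 fell. Of all genes tested, 8.7% rose and 7.59% fell. Csf2rb, the shared signalling chain of the GM-CSF, IL-3 and IL-5 receptors, was at 12.3 ± 4.25 FPKM in CKO (SD, n = 5) and 3.56 ± 1.06 FPKM in WT (SD, n = 7). Csf3r, the G-CSF receptor of neutrophils, was at 2.39 ± 1.10 FPKM in CKO (SD, n = 5) and 1.10 ± 0.564 FPKM in WT (SD, n = 7) and did not pass (adjusted p = 0.0655). Csf3, which was not tested, was listed at 0 in all 7 WT libraries and in 3 of 5 CKO libraries, and reached 1.96 FPKM in CKO.

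Transcription factors of the myeloid lineage mostly moved the same way. Of 12 such genes, all tested, 8 rose and 1 fell, beside 8.7% and 7.59% of all genes tested. Irf8, a factor of monocytes, macrophages and dendritic cells, was at 27.1 ± 1.63 FPKM in CKO (SD, n = 5) and 12.7 ± 2.28 FPKM in WT (SD, n = 7). Spic, known for its role in red pulp macrophages of the spleen that recycle iron, had a log2 fold change of 1.82 (adjusted p = 0.000621). Spi1, picked with its values known, stood at 30.9 ± 15.5 FPKM in CKO (SD, n = 5) and 13.1 ± 7.79 FPKM in WT (SD, n = 7) and rose, with overlap of the genotypes (adjusted p = 0.0262). Without CKO replicates 1 and 5, 2 of the 3 libraries with much blood RNA, 4 of the 12 factors rose and 1 fell, while the share of all genes that rose was 5.33%. The other such library, WT replicate 1, was kept in that fit. Its Cd68 (6.12 FPKM) and Lyz2 (163 FPKM) were the lowest of all libraries, whereas CKO replicates 1 and 5 were the highest for both genes. The part of blood in these values was not tested. Cebpa, which fell and was likewise picked with its values known, is also made by granulosa cells.

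Cd68 and Lyz2 had differences close in size to that of Lyve1, apart by less than their SEs, and unlike Lyve1 (1.76) both were much smaller without CKO replicates 1 and 5. Cd68 (chromosome 11, 69664213 to 69666153, minus strand), a glycoprotein of lysosomes and late endosomes, was at 114, 35.7, 39.9, 48.2 and 98.0 FPKM in CKO replicates 1 to 5, against 6.12 to 25.9 FPKM with a median of 18.3 FPKM in WT. Every CKO library was above every WT library, and replicates 1 and 5 were well above the other CKO libraries. This gave a log2 fold change of 1.95 (SE 0.35; adjusted p = 0.002, limma). Without replicates 1 and 5 it was 1.42 and still passed.

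Lyz2 (chromosome 10, 117277331 to 117282321, minus strand) encodes lysozyme M, an enzyme that cuts bacterial cell walls and is released in bulk by macrophages and neutrophils. It was at 2248, 683, 634, 829 and 2670 FPKM in CKO replicates 1 to 5, against 163 to 517 FPKM with a median of 314 FPKM in WT. Again replicates 1 and 5 stood well above the other 3 CKO libraries, which themselves exceeded all WT libraries. Its log2 fold change was 1.93 (SE 0.38; adjusted p = 0.00343, limma), and 1.22 without replicates 1 and 5. Lyz2 alone made up 83 to 93.4% of the summed level of the 10 members in CKO and 81.7 to 88.3% in WT. A summed level of the set is therefore mainly a Lyz2 level.

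Lyz2 has a close copy, Lyz1, on the same chromosome (117287797 to 117292868, minus strand), known as the lysozyme of intestinal Paneth cells. Their coding sequences, both of 444 bases, are 95% identical. The first 90 coding bases of each, from the GENCODE M21 transcripts on mm10, are shown so that the differences can be seen, which are in capitals.
Lyz2: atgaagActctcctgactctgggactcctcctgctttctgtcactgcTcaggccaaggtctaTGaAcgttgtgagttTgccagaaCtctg
Lyz1: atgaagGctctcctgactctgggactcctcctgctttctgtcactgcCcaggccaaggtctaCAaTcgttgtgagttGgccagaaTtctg
These stretches differ at 7 bases, and over the whole transcript 24 of the 1217 windows of 100 bases of Lyz2 (1.97%) occur unchanged in Lyz1. Lyz1 was at 0.485 to 5.44 FPKM in CKO and 0 to 1.13 FPKM in WT, too low to be tested, with its 2 highest values in CKO replicates 1 and 5. How the authors' counting divided fragments between the 2 copies is not given, so the Lyz1 values are uncertain.

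Itgam and Adgre1, the genes behind the classical CD11b and F4/80 antigens, did not pass the test. Itgam (chromosome 7, 128062640 to 128118491, plus strand), the alpha chain of the complement receptor integrin, was at 5.68, 3.54, 2.44, 2.77 and 5.33 FPKM in CKO replicates 1 to 5, against 0.890 to 6.20 FPKM with a median of 1.35 FPKM in WT. The highest value of all was that of WT replicate 6, at 6.20 FPKM, while the other 6 WT libraries reached at most 1.81 FPKM and lay below all CKO libraries. On the log2 scale the genotypes differed by 0.83 (SE 0.31; adjusted p = 0.0809, limma, 95% interval 0.18 to 1.48). Without WT replicate 6 it was 1.07 and passed (adjusted p = 0.00423, in a range of 0.00423 to 0.384 over the alternatives tried). In GENCODE M21 another gene model, Gm49368, shares 68.7% of the exonic bases of Itgam on the same strand.

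Adgre1 (chromosome 17, 57358691 to 57483527, plus strand), an adhesion receptor, was at 4.45, 2.92, 3.11, 5.99 and 2.93 FPKM in CKO replicates 1 to 5, against 0.584 to 5.02 FPKM with a median of 1.67 FPKM in WT. The genotypes overlapped. WT replicate 6 was again the highest WT library, as it was for Csf1r, Cd14, Mrc1 and Msr1. CKO exceeded WT by 0.69 on the log2 scale (SE 0.30; adjusted p = 0.135, limma, 95% interval 0.05 to 1.33). Without WT replicate 6 it was 0.86 and passed (adjusted p = 0.0405, in a range of 0.0405 to 0.277). A missed threshold does not show that these genes were alike in both genotypes.

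Cd14 (chromosome 18, 36725067 to 36726798, minus strand), which hands bacterial lipopolysaccharide to the TLR4 complex, rose with some overlap. It was at 73.2, 16.3, 17.5, 35.0 and 25.4 FPKM in CKO replicates 1 to 5, against 5.36 to 18.7 FPKM with a median of 9.33 FPKM in WT. Replicate 1 was the highest by a wide margin, and 3 of 5 CKO libraries lay above the WT range. This gave a log2 fold change of 1.37 (SE 0.37; adjusted p = 0.0207, limma). Without CKO replicates 1 and 5 it was 0.98 and no longer passed (adjusted p = 0.111, in a range of 0.0149 to 0.13).

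Most tested genes of a list of partners and relatives of the members rose as well. It holds genes of the integrin beta 2 family, genes around the TLR4 complex, and Lyz1. Not all of them act with CD11b or CD14, and Itgal and Itgax, of the integrin family, were among those that rose. Of the 11 genes, 9 were tested, 7 rose and 0 fell, and 5 rose without CKO replicates 1 and 5. The shares of all genes tested that rose were 8.7% and, without those 2 libraries, 5.33%. Ly96, the TLR4 partner MD-2, and Myd88, the adapter of Toll-like receptors, did not pass (adjusted p = 0.749 and 0.289, limma). Icam1, an adhesion molecule that CD11b binds and that vessels also make, was at 22.5 ± 7.85 FPKM in CKO (SD, n = 5) and 7.63 ± 3.11 FPKM in WT (SD, n = 7). Tlr4, the lipopolysaccharide receptor, was at 7.48 ± 0.632 FPKM in CKO (SD, n = 5) and 4.29 ± 0.836 FPKM in WT (SD, n = 7), and Lbp, the serum protein that loads CD14, had a log2 fold change of 1.40 (adjusted p = 0.00183). Itgb2, the beta chain that pairs with CD11b (picked with its values known), stood at 9.40 to 27.5 FPKM in CKO and 1.68 to 12.4 FPKM in WT. It rose (adjusted p = 0.0034), and its highest WT value was also that of 1 library.

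**Figure D2:**
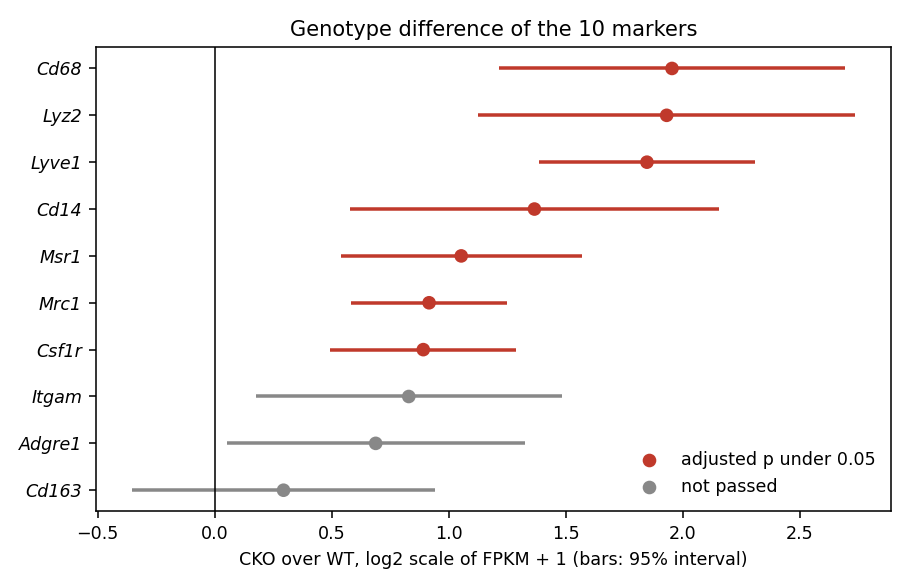
Log2 fold change of CKO over WT on the scale of FPKM + 1 for each of the 10 markers, with 95% intervals from limma; red points passed an adjusted p of 0.05 and grey points did not. Cd68, Lyz2 and Lyve1 lie between 1.85 and 1.95, and the interval of Cd163 includes 0.

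Of the 4 endocytic receptors, Mrc1, Msr1 and Lyve1 rose and Cd163 did not pass. Mrc1 (chromosome 2, 14229392 to 14332057, plus strand), the mannose receptor CD206, was at 9.99, 7.49, 6.30, 9.89 and 6.13 FPKM in CKO replicates 1 to 5, against 3.03 to 4.83 FPKM with a median of 3.42 FPKM in WT. The genotypes did not overlap, and both groups were tight. Its log2 fold change was 0.92 (SE 0.16; adjusted p = 0.00156, limma), and it passed in all 25 alternatives tried, with values from 0.84 to 1.07.

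Msr1 (chromosome 8, 39581685 to 39642673, minus strand), the class A scavenger receptor that takes up modified lipoproteins, was at 7.99, 4.42, 4.503, 5.06 and 6.15 FPKM in CKO replicates 1 to 5, against 0.747 to 3.56 FPKM with a median of 2.39 FPKM in WT. No WT library reached the lowest CKO library. On the log2 scale the genotypes differed by 1.05 (SE 0.24; adjusted p = 0.00864, limma). Without CKO replicates 1 and 5 it was 0.85 and did not pass (adjusted p = 0.0785, in a range of 0.00628 to 0.0785).

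Cd163 (chromosome 6, 124304656 to 124330527, plus strand), the receptor that clears complexes of haemoglobin and haptoglobin, was the lowest of the set. It was at 0.322, 1.41, 2.96, 1.798 and 0.111 FPKM in CKO replicates 1 to 5, against 0.252 to 1.26 FPKM with a median of 0.799 FPKM in WT. CKO replicates 1 and 5 were among the lowest libraries, although they had the most Cd68 and Lyz2, and the other 3 CKO libraries lay above all WT libraries. On a transcript of 4443 bases, these values stand for about 0.95 to 24 fragments in CKO and 2.8 to 12 in WT. CKO exceeded WT by 0.29 on the log2 scale (SE 0.30; adjusted p = 0.561, limma, 95% interval -0.35 to 0.94). Single libraries moved this value: it was 0.06 without CKO replicate 3, 0.52 without CKO replicate 5, and 0.81 without CKO replicates 1 and 5 (adjusted p = 0.0654, in a range of 0.0654 to 0.919 over the alternatives tried).

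Lyve1 (chromosome 7, 110850607 to 110863239, minus strand), a hyaluronan receptor of perivascular macrophages and lymphatic vessels, had the smallest p of the set. It was at 31.3, 22.0, 19.7, 43.6 and 31.2 FPKM in CKO replicates 1 to 5, against 3.62 to 9.51 FPKM with a median of 7.67 FPKM in WT. The lowest CKO library lay far above the highest WT library. This gave a log2 fold change of 1.85 (SE 0.22; adjusted p = 0.000256, limma), and it lay between 1.70 and 1.98 in the 25 alternatives tried, all of which it passed.

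Some markers of lymphatic endothelium also rose. Of 8 such genes 7 were tested, 3 rose and 0 fell, where 8.7% of all genes tested rose. Their summed level was 206 to 375 FPKM in CKO and 48.5 to 113 FPKM in WT. By group means, Ccl21a was the largest part of this sum in both genotypes, and a sum without it was not taken. Ccl21a, a chemokine of lymphatic vessels that exists in several near-identical gene copies and whose value is therefore uncertain, was at 209 ± 76.3 FPKM in CKO (SD, n = 5) and 45.3 ± 11.8 FPKM in WT (SD, n = 7). Mmrn1, a secreted protein of lymphatic endothelium and platelets, was at 31.3 ± 9.75 FPKM in CKO (SD, n = 5) and 10.6 ± 2.05 FPKM in WT (SD, n = 7), and Reln had a log2 fold change of 0.76 (adjusted p = 0.0114). The lineage factor Prox1 was at 1.82 ± 0.681 FPKM in CKO (SD, n = 5) and 1.05 ± 0.516 FPKM in WT (SD, n = 7) without passing (adjusted p = 0.17), and Flt4, the lymphatic VEGF receptor, did not pass (adjusted p = 0.0506). Stab2, a scavenger receptor of lymphatic and sinusoidal endothelium, was near 0 in both, at no more than 0.223 FPKM in CKO and 0.296 FPKM in WT. The part of lymphatic vessels in the Lyve1 difference was not tested. Prox1, Flt4 and Stab2 were picked with their values known, and the remaining members of the list, Pdpn and Sema3d, did not pass.

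Further genes of macrophages and of resident macrophages rose in part. For the counts that follow, 8.7% of all genes tested rose, and 5.33% did so without CKO replicates 1 and 5. Of 12 other macrophage genes, all tested, 10 rose and 0 fell, while Cx3cr1 and Aif1 did not pass. Clec7a, the receptor dectin-1 for fungal glucans, was at 115 ± 76.7 FPKM in CKO (SD, n = 5) and 21.1 ± 9.92 FPKM in WT (SD, n = 7). Clec4n, which encodes dectin-2, and Laptm5, a lysosomal protein of leukocytes, had log2 fold changes of 1.75 and 1.59. Without CKO replicates 1 and 5, 6 of the 12 rose. Of 20 other resident and scavenger receptor genes, 14 were tested, 7 rose and 0 fell, and 6 rose without those 2 libraries. The summed level of these genes was 1500 to 1870 FPKM in CKO and 842 to 1400 FPKM in WT, without overlap. By group means, Selenop was the largest part of this sum among these genes in both genotypes. The 3 with the smallest p handle iron, haem or selenium: Hmox1, the enzyme that degrades haem, was at 268 ± 42 FPKM in CKO (SD, n = 5) and 96.3 ± 22.4 FPKM in WT (SD, n = 7); Slc40a1, the iron exporter ferroportin, at 106 ± 22 FPKM in CKO and 44.5 ± 11 FPKM in WT; and Selenop, a selenium carrier listed under its older symbol, at 997 ± 62.8 FPKM in CKO and 511 ± 81.5 FPKM in WT. Cd5l, a secreted scavenger protein of macrophages, was at 53.8 ± 28.4 FPKM in CKO (SD, n = 5) and 8.15 ± 5.02 FPKM in WT (SD, n = 7), without overlap, and its log2 fold change of 2.57 (adjusted p = 0.000677, limma) exceeded those of all 10 members. Cd36, a fatty acid and lipoprotein receptor that vessels also make, had 1.36 (adjusted p = 0.000895, limma), likewise without overlap. Several genes that define resident macrophages of other organs were at or near 0 in both genotypes: Timd4, Vsig4, Marco, Cd209f and Stab1 reached at most 0.735 FPKM in CKO and 1.26 FPKM in WT, and Marco was listed at 0 in all CKO libraries. Folr2, another resident marker, was at 0 to 3.65 FPKM in CKO and 0.415 to 5.07 FPKM in WT and did not pass.

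Other leukocytes that could hold some of the members also differed between the genotypes. The share to set beside each count is 8.7% of all genes tested that rose, or 5.33% without CKO replicates 1 and 5. Of 14 monocyte and neutrophil genes, 13 had a row, 5 were tested, and the monocyte genes Ly6c2 and Ccr2 rose, with log2 fold changes of 1.77 and 1.04 (adjusted p = 0.00598 and 0.00373, limma). Plac8 had 1.39 (adjusted p = 0.0727), S100a8 and S100a9, the main neutrophil transcripts, did not pass, Mpo was listed at 0 in all 12 libraries, and Camp in all CKO libraries. The summed level of these genes was 40.1 to 98.1 FPKM in CKO and 17.8 to 43.2 FPKM in WT. Dendritic cell genes had 3 rises (Ccr7, Cd209a and Xcr1) among 6 tested of 8, with a summed level of 24.8 to 34.5 FPKM in CKO and 16.2 to 27.4 FPKM in WT, and 1 rise without CKO replicates 1 and 5. Mast cell genes had 5 rises among 7 tested of 8, led by Fcer1a, Cpa3 and Cma1, with a summed level of 92.4 to 293 FPKM in CKO and 24.4 to 43 FPKM in WT. T, NK and B cell genes had 2 rises (Cd4 and Cd3e, while Nkg7 did not pass) among 5 tested of 9, with a summed level of 13.8 to 28.2 FPKM in CKO and 4.24 to 7.21 FPKM in WT. Their part in the Lyz2, Itgam and Cd14 values was not tested. Of 7 blood endothelial genes tested of 8, Tek rose (0 genes of the list rose without CKO replicates 1 and 5), Pecam1 and Esam did not pass, and the summed levels overlapped, at 174 to 248 FPKM in CKO and 104 to 232 FPKM in WT. None of 4 red blood cell genes tested of 7 passed (limma, with Hbb-bt, Hba-a1 and Alas2 at adjusted p = 0.124, 0.481 and 0.525; 1 of the 4, Hbb-bt, had an unadjusted p under 0.05, at 0.0318), and of 8 stromal and theca genes Dcn, Lum and Tcf21 rose. Their summed levels were 13 to 316 FPKM in CKO and 19.6 to 249 FPKM in WT for red blood cells, and 2280 to 3510 FPKM in CKO and 985 to 3010 FPKM in WT for stroma and theca. Hsd17b1, Inhba and Inha had the smallest p among the granulosa genes, all of which fell.

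**Figure D3:**
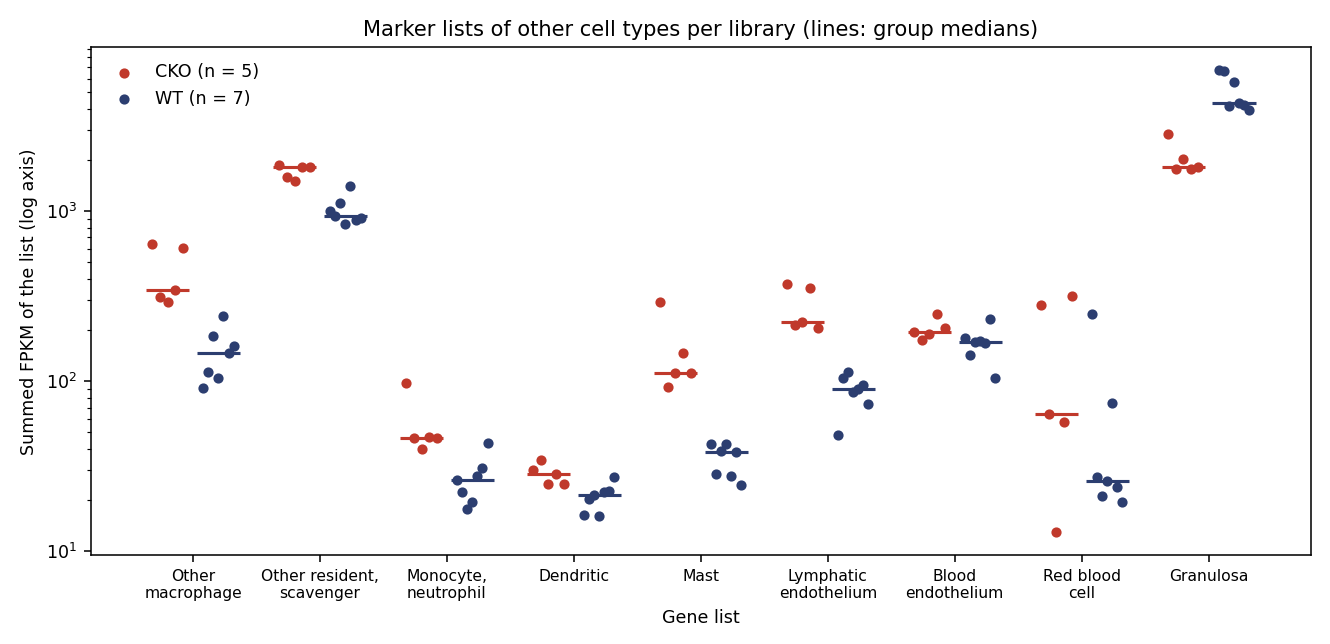
Summed FPKM (log axis) of 9 gene lists, with 1 point per library (red, CKO, n = 5; blue, WT, n = 7) and a line at each group median. The lists of other macrophage, other resident and scavenger, mast cell and lymphatic genes lie higher in all CKO libraries than in any WT library. By group means, the largest part of the lymphatic sum is Ccl21a, and that of the other resident and scavenger sum is Selenop. Granulosa genes lie lower in all CKO libraries. The monocyte and neutrophil, dendritic, blood endothelial and red blood cell lists overlap.

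The order of levels was similar in both genotypes. In CKO the means ran from Lyz2 (1413 FPKM) through Cd68 (67.2), Cd14 (33.5), Lyve1 (29.6), Csf1r (14.2), Mrc1 (7.96), Msr1 (5.62), Itgam (3.95) and Adgre1 (3.88) to Cd163 (1.32 FPKM). In WT they ran from Lyz2 (322 FPKM) through Cd68 (16.0), Cd14 (11.5), Lyve1 (7.40), Csf1r (7.24), Mrc1 (3.71), Msr1 (2.29), Adgre1 (2.23) and Itgam (2.004) to Cd163 (0.739 FPKM). Cd14 and Lyve1 did not differ beyond their spread in either genotype, with Cd14 above Lyve1 in 1 of 5 CKO and 4 of 7 WT libraries. The same held for Itgam and Adgre1, with Itgam above Adgre1 in 3 of 5 CKO libraries and Adgre1 above Itgam in 4 of 7 WT libraries. Lyve1 was above Csf1r in 5 of 5 CKO libraries and in 3 of 7 WT libraries.

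To see whether members differed in the size of their rise, each was set against Csf1r within the same library. On the log2(FPKM + 1) scale, Cd68 exceeded Csf1r by 2.03 ± 0.596 in CKO (SD, n = 5) and 0.97 ± 0.423 in WT (SD, n = 7), a difference of 1.06 (adjusted p = 0.0114, exact two-sided permutation test, adjusted over 9 members). Lyz2 exceeded it by 6.29 ± 0.857 in CKO (SD, n = 5) and 5.25 ± 0.425 in WT (SD, n = 7), a difference of 1.04 (adjusted p = 0.0417, exact permutation test). Lyve1 exceeded it by 0.98 ± 0.226 in CKO (SD, n = 5) and 0.02 ± 0.586 in WT (SD, n = 7), a difference of 0.96 (adjusted p = 0.0398, exact permutation test). Relative to Csf1r, the remaining members differed by 0.48 (Cd14), 0.16 (Msr1), 0.02 (Mrc1), -0.06 (Itgam), -0.20 (Adgre1) and -0.60 (Cd163), and none of these 6 passed. Over the 12 fits that each leave out 1 library, the Cd68 ratio passed in 10, missing without CKO replicate 1 and without CKO replicate 5 (adjusted p = 0.0545 in each, exact permutation test), and the Lyz2 and Lyve1 ratios passed in 3 each. Without both CKO replicates 1 and 5 the difference was 0.64 for Cd68, 0.44 for Lyz2 and 0.98 for Lyve1 (adjusted p = 0.225, 0.475 and 0.225 in exact permutation tests whose smallest unadjusted p is 0.0083).

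**Figure D4:**
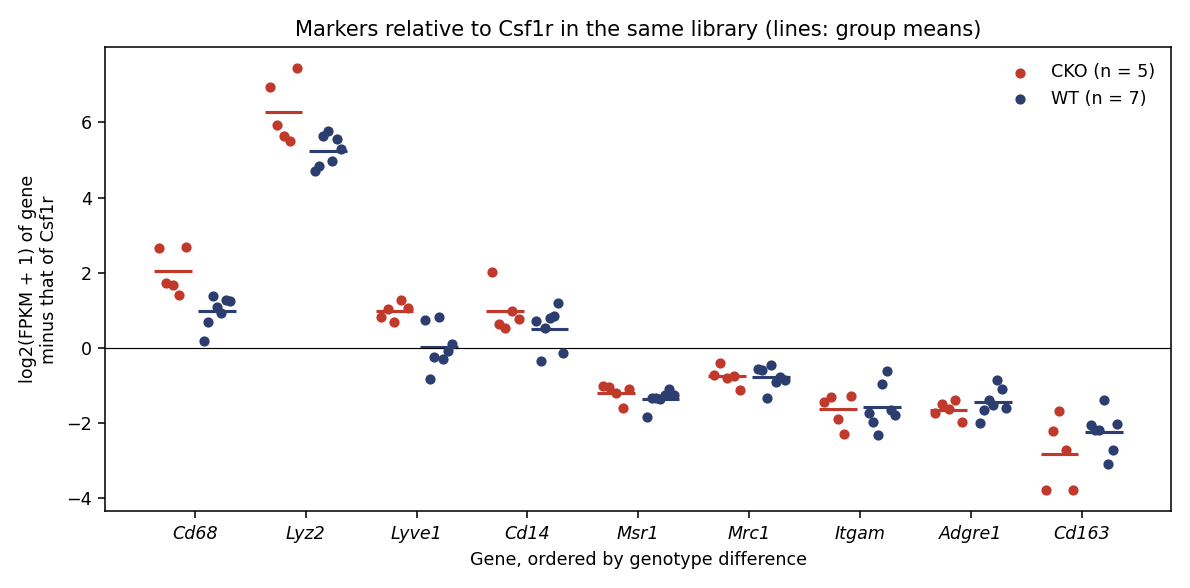
Difference in log2(FPKM + 1) between each of 9 markers and Csf1r in the same library, with 1 point per library (red, CKO, n = 5; blue, WT, n = 7) and a line at each group mean. Cd68 relative to Csf1r is 1.42 to 2.68 in CKO and 0.17 to 1.38 in WT, while Mrc1, Msr1, Itgam and Adgre1 overlap widely.

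Within a genotype the members did not all vary together. Correlations of log2 values, taken as deviations from the genotype mean over the 12 libraries, had a median of 0.483 over the 45 pairs of members and were above 0 in 35. They are given as a description, and libraries share depth and tissue composition across all genes. The closest pair was Cd68 and Lyz2 (r = 0.931), followed by Cd68 and Msr1 (r = 0.893) and Adgre1 and Csf1r (r = 0.859). Csf1r (r = 0.861), Adgre1 (r = 0.832) and Msr1 (r = 0.821) followed the mean of the other members most closely, Lyve1 followed it weakly (r = 0.202), and Cd163 ran against it (r = -0.545). Cd163 was opposed most to Lyz2 (r = -0.649) and Itgam (r = -0.627). Among all other genes tested, those with a deviation most like the mean of the members were Tsc2 (r = 0.94), Gng2 (r = 0.938), Icam1 (r = 0.935), Laptm5 (r = 0.931) and C1qa (r = 0.92), over 12 libraries. C1qa, a chain of complement C1q, was at 322 ± 84.8 FPKM in CKO (SD, n = 5) and 150 ± 75 FPKM in WT (SD, n = 7) and rose (adjusted p = 0.00866, limma). Tsc2, which encodes an inhibitor of the mTOR pathway, was at 7.05 ± 0.931 FPKM in CKO (SD, n = 5) and 5.66 ± 0.521 FPKM in WT (SD, n = 7) and did not pass (adjusted p = 0.127). Gng2, a G protein subunit, did not pass either (adjusted p = 0.0781).

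**Figure D5:**
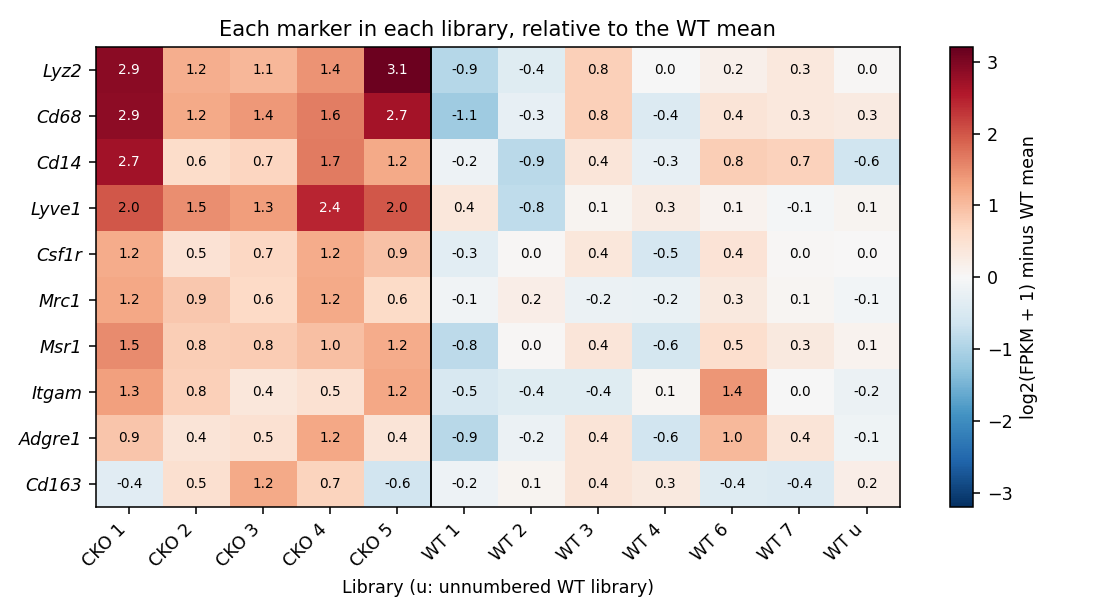
Log2(FPKM + 1) of each marker (rows) in each library (columns, CKO left of WT) minus the WT mean of that marker, from -1.14 (blue) to 3.13 (red). CKO replicates 1 and 5 are highest for Lyz2 and Cd68 and below the WT mean for Cd163, and Itgam is raised by 1.42 in WT replicate 6.

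The authors' deposited table lists 7 of the members at a q-value under 0.05, the same 7 that rose here. Its log2 fold changes for CKO over WT in the authors' deposited table were 2.07 for Cd68, 2.13 for Lyz2, 1.997 for Lyve1, 1.55 for Cd14, 1.30 for Msr1, 1.10 for Mrc1 and 0.97 for Csf1r. For Adgre1, Itgam and Cd163 the authors' deposited table gives 0.80, 0.98 and 0.84 with q = 1. Such a value can stand for a gene that was not tested, so it does not show that these genes were alike in both genotypes.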

How the data were processed

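RNA of 12 ovary libraries (5 CKO, 7 WT) was isolated by poly(A) selection. Per the labels and the series' design text, the authors removed adaptors and low-quality bases, used TopHat2 2.0.13 with the mm10 genome, and obtained FPKM from Cufflinks 2.2.1. The authors' Cuffdiff comparison is deposited as a log2 ratio with its p-value and q-value. Annotation, scaling and strand use were not stated there. For 99.9% of 13045 genes averaging over 1 FPKM, the deposited log2 ratio matched CKO over WT to within 0.01, the reverse of its column name. Columns were assigned by sample names, groups by titles.

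FPKM are not counts. Values were analysed as log2(FPKM + 1), which understates changes of low genes. Genes with at least 1 FPKM in at least 5 libraries were tested (13168) with limma 3.58.1 (R 4.3.3; trended, genotype only), two-sided, Benjamini-Hochberg adjusted, threshold 0.05, checked on simulated data. Ratios to Csf1r were tested by exact permutation over 792 divisions of the libraries, p = 0.0013 being the smallest possible. Fragment steps came from 160 to 311 genes per library with 1 annotated transcript of known length, of which 67.9 to 78.9% were whole multiples within 0.15. Motifs and sequence identity were computed with Python 3.11.15 and Biopython 1.88. Positions are from GENCODE M21 on mm10, 1-based. In the deposited table the row for Msr1 covers a wider region than the gene model.

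The members, lists and tests were chosen with earlier results of these data known. Named by rule besides members are the 3 genes of smallest p in each list, the 5 genes most like the members, Mtor and Lyz1; 1 gene that this rule names is not reported here. All other genes named in the text, Hmgxb3 and Foxl2 among them, were picked with their values known. Alternatives covered pseudocount, filter, scaling, weights, trend, an exact rank-sum test, a replicate block and leaving out libraries. Which animal gave which library is not labelled, so each p-value reflects spread between libraries, which may be technical.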

Additional observations from a re-analysis of the deposited data

Results flagged for a closer look

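Of 20 groups of values (10 members in 2 genotypes), 1 held a library far from the others: Itgam in WT replicate 6, at 6.20 FPKM, with the next WT library at 1.81 FPKM, a gap of 0.827 of the range of the WT group. The gap is well above the 95% critical value for 7 libraries, which about 1 in 20 groups pass by chance. Adgre1, Csf1r, Cd14, Mrc1 and Msr1 were also highest among WT in this library, at 5.02, 9.97, 18.7, 4.83 and 3.56 FPKM. Cd68 and Lyz2 in it, at 19.8 and 340 FPKM, lay within the other WT libraries, as did Lyve1 and Cd163. Leaving this library out therefore removes a WT library that was high for much of the set.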

How the results depend on the processing

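All 246 values of single members under alternatives kept their direction, and 236 kept their side of the threshold. Of the 10 members, 7 rose, and between 7 and 9 did so with each library left out. Without WT replicate 6, 9 rose, beside 8.56% of all genes tested. Without CKO replicates 1 and 5, 5 rose, beside 5.33% of all genes, and by the exact rank-sum test 6 rose, beside 5.69%. With a mean of at least 5 FPKM required, only 6 members were tested and all 6 rose, beside 8.72% of all genes. Same-numbered libraries were not paired in the labels and their deviations did not go together (r from -0.071 to 0.0901 for 4 numbers; 0 of 4 CKO libraries were closest to the WT library of their number). With a replicate block on these 8 libraries 4 members rose (Csf1r, Lyz2 and Msr1 missed, at log2 fold changes of 1.00, 1.77 and 1.26 and adjusted p = 0.0562, 0.0575 and 0.0523 by limma), against 9 in the same libraries without it, which was added once the data had been seen. Of all genes tested, 5.74% rose with the block and 6.84% without it. The count of ratios to Csf1r that passed, 3 of 9, was 1 with a pseudocount of 0.1 and 1 with 0.5. It was 0 without CKO replicates 1 and 5, and between 0 and 3 with each library left out. With Cd68 as the denominator 6 of 9 passed. Cd68 had the largest log2 fold change of the set (1.95), so each of these 9 ratios was lower in CKO than in WT. This count is therefore no support for the 3 ratios to Csf1r. Why more passed with Cd68 was not tested. With the replicate block the count of ratios to Csf1r that passed was 0, an outcome fixed beforehand. A permutation of the signs of 4 paired differences cannot reach the threshold. Small ratio differences changed sign: Itgam gave 0.20 and 0.052 with the pseudocounts of 0.1 and 0.5, 0.0257 with the block, and -0.19 to 0.10 with each library left out; Adgre1 gave 0.0152 with a pseudocount of 0.1 and 0.0742 with the block; Mrc1 gave -0.0667 to 0.1129 with each library left out; Cd163 gave 0.0345 without CKO replicates 1 and 5. List counts without WT replicate 6 or without those 2 CKO libraries were likewise chosen after seeing the data.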
